A study of Mus musculus with 8 samples.

Results

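The corticosteroid receptors, the enzymes that set how much corticosteroid reaches them and the chaperones that fold them were followed as a group of 10 genes: Nr3c1, Nr3c2, Hsd11b1, Hsd11b2, Fkbp4, Fkbp5, Hsp90aa1, Hsp90ab1, Ptges3 and Stip1. They were chosen by name, with earlier results of these data known. All 10 were found among the 35852 genes of the deposited count table through their GENCODE M21 symbols. Directional libraries of poly(A) RNA were sequenced from bEnd3, an immortalised line of mouse brain endothelial cells. Corticosterone at 5 µM was given for 24 h to 4 samples, and 4 samples had culture medium according to their titles and their treatment field. The medium samples carry a protocol text that mentions corticosterone too, and the labels give no vehicle. All samples were grown in DMEM with 10% FCS. The study is of 1 cell line, and nothing in the labels says that the replicates were separate cultures. A p-value here measures how these samples scatter, which may be technical.

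Corticosterone is the main glucocorticoid of mice. Its receptors, GR (encoded by Nr3c1) and MR (encoded by Nr3c2), wait in the cytoplasm on a platform of HSP90, which holds the hormone pocket open. The co-chaperones take turns on this platform: STI1 hands the receptor from HSP70 to HSP90, p23 locks the mature complex, and the immunophilins FKBP51 and FKBP52 compete for one docking site. FKBP51 holds hormone binding low and FKBP52 favours it and transport to the nucleus. Fkbp5, which encodes FKBP51, is a classical target of GR, and the loop is known as a short negative feedback of glucocorticoid signalling.

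The libraries held 19.7 M to 46.2 M estimated counts (M, 1e+06). Markers of endothelium were present: all 12 fixed endothelial markers had a mean of at least 1 CPM (counts per 1e+06 on TMM-scaled libraries), and they summed to 9335 to 9649 CPM in corticosterone libraries and 8662 to 9206 CPM in medium libraries. Of the pericyte and smooth muscle markers 0 of 8 reached that mean (1.67 to 2.61 CPM summed in corticosterone libraries and 2.12 to 3.62 in medium libraries). Of the neural and glial markers 0 of 8 did (0.761 to 1.12 CPM summed in corticosterone libraries and 0.479 to 0.805 in medium libraries), with Aqp4, Syt1 and Olig2 at 0 in every library. The 6 leukocyte and microglia markers summed to 16.9 to 18.7 CPM in corticosterone libraries and 17.2 to 19.1 CPM in medium libraries. Nearly all of this sum was Cd68 (17.0 CPM with corticosterone and 17.3 CPM in medium), the 1 marker of the 6 with a mean of at least 1 CPM. The 6 fibroblast markers, of which 2 reached it, summed to 5.67 to 6.58 CPM in corticosterone libraries and 19.8 to 21.7 CPM in medium libraries, most of it Pdgfra (4.87 CPM with corticosterone and 18.4 CPM in medium). This sum moves with the treatment and its part in the results below was not tested. Corticosterone replicates 1 and 2 stand apart from the other libraries, because their transcript tables carry effective lengths that were not shortened by a fragment length. Where leaving both out changed a call or moved a called value by more than 1.5 times, the value in the other 6 libraries is given too.

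Of the 10 genes, 9 passed the filter on low counts. Of these, 3 rose with corticosterone (Fkbp5, Nr3c2 and Hsd11b2), 3 fell (Nr3c1, Fkbp4 and Stip1) and 3 did not pass the test (Hsp90aa1, Hsp90ab1 and Ptges3), at a Benjamini-Hochberg adjusted p under 0.05 in edgeR's quasi-likelihood test over all 13272 genes tested. Over all genes 40.1% passed, 19.5% higher and 20.6% lower, so that a call by itself sets no gene of the group apart. Without corticosterone replicates 1 and 2, 7 of the 9 passed, the same 6 genes and Hsp90aa1, where 36.4% of 13639 genes did. The log2 fold changes of the 6 were then 2.77 for Fkbp5, 0.76 for Nr3c2, 1.44 for Hsd11b2, -0.34 for Nr3c1, -0.30 for Fkbp4 and -0.17 for Stip1. The libraries of the 2 groups did not overlap in CPM for 6 of the 9 genes, against 40.0% of all genes tested. Because whole cultures were measured, more RNA per cell and more cells with the RNA cannot be told apart.

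**Figure D1:**
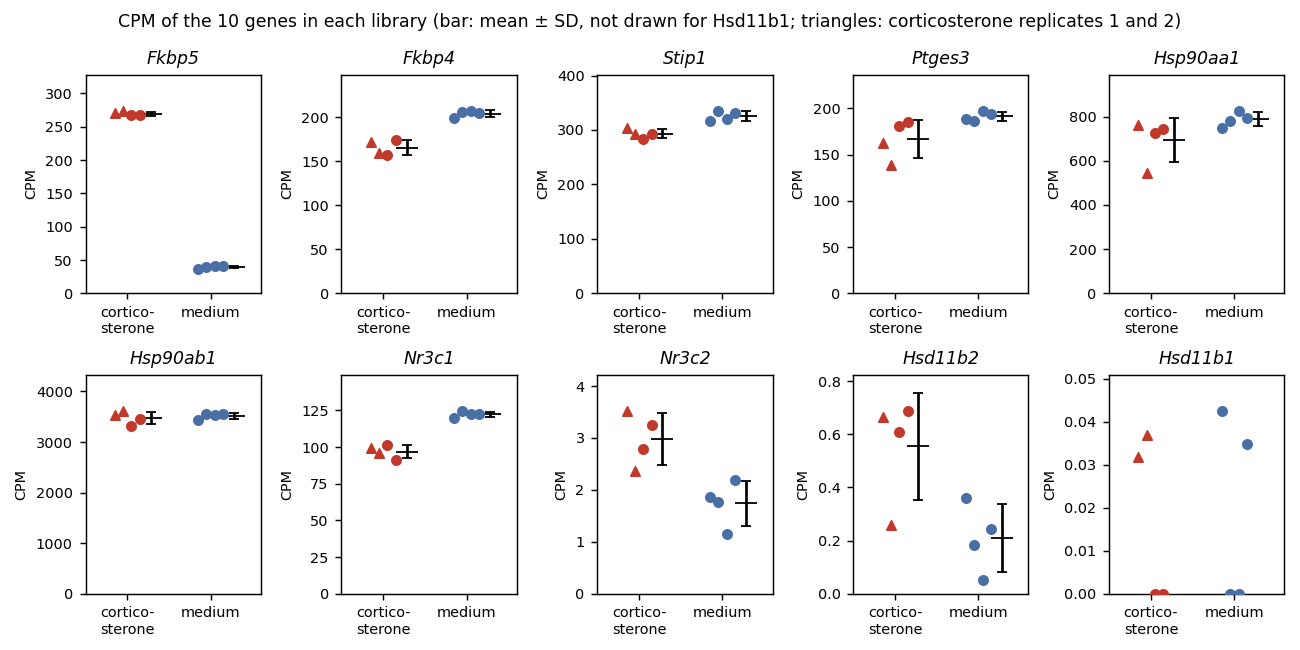
CPM (counts per 1e+06 on TMM-scaled libraries, y axis from 0) of each of the 10 genes in the 4 corticosterone libraries (red) and the 4 medium libraries (blue). Points are libraries, triangles mark corticosterone replicates 1 and 2, and bars are the mean ± SD. Bars are not drawn for Hsd11b1. Fkbp5 lies at 267 to 274 CPM in corticosterone libraries and at 36.9 to 41.0 CPM in medium libraries, while the Hsp90ab1 groups lie on top of each other.

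Nr3c1 (ENSMUSG00000024431.15, chromosome 18, 39410545 to 39519421, minus strand, GRCm38), the gene of the glucocorticoid receptor, had 99.2, 96.1, 101 and 91.0 CPM in the corticosterone libraries, against 120, 124, 122 and 123 CPM in the medium libraries. Every corticosterone library lay below every medium library. The gene fell to 96.9 ± 4.53 CPM with corticosterone, against 122 ± 1.82 CPM in medium (SD, n = 4 each), a log2 fold change of -0.34 ± 0.032 (SE) and a level 0.792 times that of medium (edgeR adjusted p = 3.65e-06). On log2(TPM + 0.5) with limma-trend the fold change was larger in size, at -0.60 (adjusted p = 0.0209, and 0.0642 without a filter). The median of all genes was -0.17 there. In TPM, corticosterone replicates 1 and 2 stood at 21.8 and 20.9, replicates 3 and 4 at 30.3 and 29.3, and medium at 36.9 to 40.1.

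Nr3c2 (ENSMUSG00000031618.13, chromosome 8, 76899442 to 77245012, plus strand), the gene of the mineralocorticoid receptor, which binds corticosterone more tightly than GR does, had 3.51, 2.36, 2.79 and 3.25 CPM in the corticosterone libraries, against 1.86, 1.76, 1.16 and 2.19 CPM in the medium libraries. The groups did not overlap, but the closest libraries, 2.36 and 2.19 CPM, lay near each other. It rose 1.69-fold to 2.98 ± 0.508 CPM, against 1.74 ± 0.433 CPM in medium (log2 fold change 0.76 ± 0.196, edgeR adjusted p = 0.00795). These values rest on 64 to 111 estimated counts per corticosterone library and 23 to 87.9 per medium library. The call was lost on log2 TPM with limma-trend (log2 fold change 0.34, adjusted p = 0.315, with a pseudocount of 0.5).

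Because one receptor gene fell and the other rose, the ratio of Nr3c1 to Nr3c2 CPM within a library was lower with corticosterone. It was 28.2, 40.6, 36.3 and 28.0 in the corticosterone libraries, against 64.4, 70.7, 106 and 56.0 in the medium libraries. These ratios are not corrected for transcript length and are compared between libraries only. The difference of the log2 ratios was -1.13, and a two-sided exact permutation test over the 4 and 4 libraries gave p = 0.0286 (0.0286 after adjustment over the 3 ratios tested), the smallest p this design allows. Neither gene overlapped between the groups and they moved in opposite directions. The ratios therefore had to separate, and this p adds no support beyond the values of each gene.

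Hsd11b2 (ENSMUSG00000031891.6, chromosome 8, 105518755 to 105523988, plus strand) encodes the dehydrogenase that inactivates corticosterone and so shields MR in aldosterone target cells. It was close to the limit of detection, with 21, 7, 20 and 19 estimated counts in the corticosterone libraries, against 17, 5, 1 and 7 in the medium libraries. On the scaled values this was 0.665, 0.259, 0.607 and 0.686 CPM with corticosterone, against 0.360, 0.184, 0.0502 and 0.244 CPM in medium. The groups overlapped, corticosterone replicate 2 lying below medium replicate 1. The gene rose 2.40-fold (log2 fold change 1.26 ± 0.455, edgeR adjusted p = 0.0435), a call that was lost in 12 of the 19 alternatives, among them 6 of the 8 that leave out 1 library (corticosterone replicate 1, 3 or 4, or medium replicate 2, 3 or 4, with adjusted p of 0.0843 to 0.107).

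Hsd11b1, which encodes the reductase that regenerates corticosterone from its inactive form, was at the limit of detection in both groups, with 1, 1, 0 and 0 estimated counts in the corticosterone libraries and 2, 0, 0 and 1 in the medium libraries. It did not pass the filter, was not tested and is given no fold. Its annotated span (chromosome 1, 193221634 to 193264075, minus strand) overlaps Lamb3 on the plus strand.

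Fkbp5 (ENSMUSG00000024222.17, chromosome 17, 28399094 to 28517527, minus strand) had 270, 274, 267 and 267 CPM in the corticosterone libraries, against 36.9, 39.1, 40.8 and 41.0 CPM in the medium libraries. The replicates of each group lay close together and far from the other group. It rose 6.83-fold to 269 ± 3.06 CPM, against 39.4 ± 1.92 CPM in medium (log2 fold change 2.77 ± 0.035, edgeR adjusted p = 6.33e-14). Of all genes tested it had the smallest p, and it ranked 94 by the size of its log2 fold change. Of all genes 2.50% passed the test with a rise of at least 2-fold. The call and the direction held in all 19 alternatives, with log2 fold changes of 2.73 to 2.79.

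Fkbp4 (ENSMUSG00000030357.10, chromosome 6, 128429735 to 128438677, minus strand), the gene of FKBP52, went the other way. It had 172, 159, 157 and 174 CPM in the corticosterone libraries, against 199, 206, 207 and 205 CPM in the medium libraries, with a clear gap between the groups. It fell to 165 ± 8.66 CPM with corticosterone, against 204 ± 3.73 CPM in medium, 0.809 times the medium level (log2 fold change -0.31 ± 0.035, edgeR adjusted p = 1.65e-05).

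The ratio of Fkbp5 to Fkbp4 CPM was 1.57, 1.72, 1.70 and 1.53 in the corticosterone libraries, against 0.185, 0.190, 0.197 and 0.200 in the medium libraries. It lay above 1 in every corticosterone library and below 1 in every medium library, before any correction for transcript length. The log2 ratios differed by 3.08 (exact permutation p = 0.0286, the smallest possible). Here too neither gene overlapped between the groups and they moved in opposite directions, so this p was fixed by their values.

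Stip1 (ENSMUSG00000024966.9, chromosome 19, 7020702 to 7039967, minus strand), the gene of STI1 (HOP), the adaptor between HSP70 and HSP90, had 304, 292, 284 and 293 CPM in the corticosterone libraries, against 316, 335, 321 and 331 CPM in the medium libraries. The shift was small and the groups did not overlap. It fell to 293 ± 8.35 CPM, against 326 ± 8.58 CPM in medium, 0.901 times the medium level (log2 fold change -0.15 ± 0.028, edgeR adjusted p = 0.000884). On log2 TPM the fold change was larger in size, at -0.41, and did not pass in any of the 3 alternatives (adjusted p of 0.0879 to 0.171). Corticosterone replicates 1 and 2 stood at 183 and 146 TPM, replicates 3 and 4 at 210 and 218 TPM, and medium at 249 ± 6.90 TPM. In CPM the 4 corticosterone libraries did not split in this way. The part of corticosterone replicates 1 and 2 in the larger TPM fold change was not tested.

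Hsp90ab1 (ENSMUSG00000023944.14, chromosome 17, 45567775 to 45573271, minus strand), the gene of the constitutive HSP90-beta, had 3527, 3608, 3325 and 3448 CPM in the corticosterone libraries, against 3427, 3561, 3533 and 3547 CPM in the medium libraries. The groups overlapped throughout. The means of 3477 ± 121 CPM with corticosterone and 3517 ± 61.0 CPM in medium gave a log2 fold change of -0.02 ± 0.026 (edgeR adjusted p = 0.653).

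Hsp90aa1 (ENSMUSG00000021270.13, chromosome 12, 110690605 to 110702728, minus strand), the gene of the inducible HSP90-alpha, had 763, 547, 726 and 744 CPM in the corticosterone libraries, against 749, 781, 825 and 795 CPM in the medium libraries. Corticosterone replicate 2 lay far below the other 7 libraries. With all libraries the log2 fold change was -0.18 ± 0.11 (edgeR adjusted p = 0.250), and without corticosterone replicates 1 and 2 it was -0.10 ± 0.035 (adjusted p = 0.0428).

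Ptges3 (ENSMUSG00000071072.12, chromosome 10, 128058954 to 128077272, plus strand), the gene of p23, had 163, 139, 181 and 185 CPM in the corticosterone libraries, against 188, 186, 197 and 194 CPM in the medium libraries. The groups did not overlap, and corticosterone replicates 1 and 2 were the lowest. The log2 fold change was -0.20 ± 0.089 (edgeR adjusted p = 0.128). It was -0.12 without corticosterone replicate 2 (adjusted p = 0.0437) and -0.06 without corticosterone replicates 1 and 2 (adjusted p = 0.154).

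**Figure D2:**
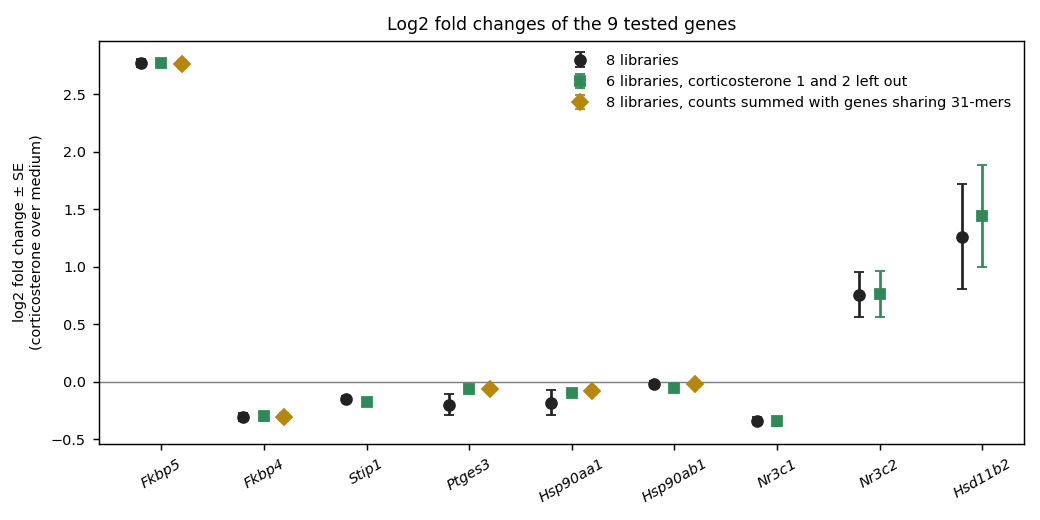
Log2 fold changes ± SE (corticosterone over medium) of the 9 tested genes with all 8 libraries (circles), with the 6 libraries left without corticosterone replicates 1 and 2 (squares), and with counts summed over genes that share sequence (diamonds, for the 5 genes that have such copies). Ptges3 moves from -0.20 to -0.06 with either change, and Fkbp5 stays at 2.77.

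The last 2 of these genes share sequence with processed copies elsewhere in the genome. Of the 31-mers of the annotated Hsp90aa1 transcripts 48.5% occur in no other gene, and of those of Ptges3 79.1%, against 86.8% to 100% for the other 8 genes. Gm12346 shares 1854 31-mers with Hsp90aa1, 83.3% of its own. It had 87.2, 5823, 67.3 and 110 estimated counts in the corticosterone libraries, against 117, 60.1, 62.6 and 132 in the medium libraries, so that corticosterone replicate 2, the one low in Hsp90aa1, was the one high in the copy. Ptges3-ps shares all of its 450 31-mers with Ptges3. It had 658, 1290, 71.4 and 69.3 estimated counts in the corticosterone libraries, against 0.0132, 50.6, 38.7 and 52.5 in the medium libraries, highest where Ptges3 was lowest.

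With the copies added, Hsp90aa1 stood at 765, 762, 728 and 748 CPM in the corticosterone libraries, against 752, 783, 828 and 800 CPM in the medium libraries. Corticosterone replicate 2 then lay among the others. The means of 751 ± 17.1 CPM with corticosterone and 791 ± 32.0 CPM in medium gave a log2 fold change of -0.07 ± 0.030 (edgeR adjusted p = 0.0666). Ptges3 with its copies stood at 183, 187, 183 and 188 CPM in the corticosterone libraries, against 188, 188, 199 and 195 CPM in the medium libraries. Its SD among corticosterone libraries was 2.31 CPM with the copies and 20.9 CPM without them. The log2 fold change was -0.06 ± 0.026 (edgeR adjusted p = 0.0928). This sum was chosen after the data were seen, and it moved no call of the other members.

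**Figure D3:**
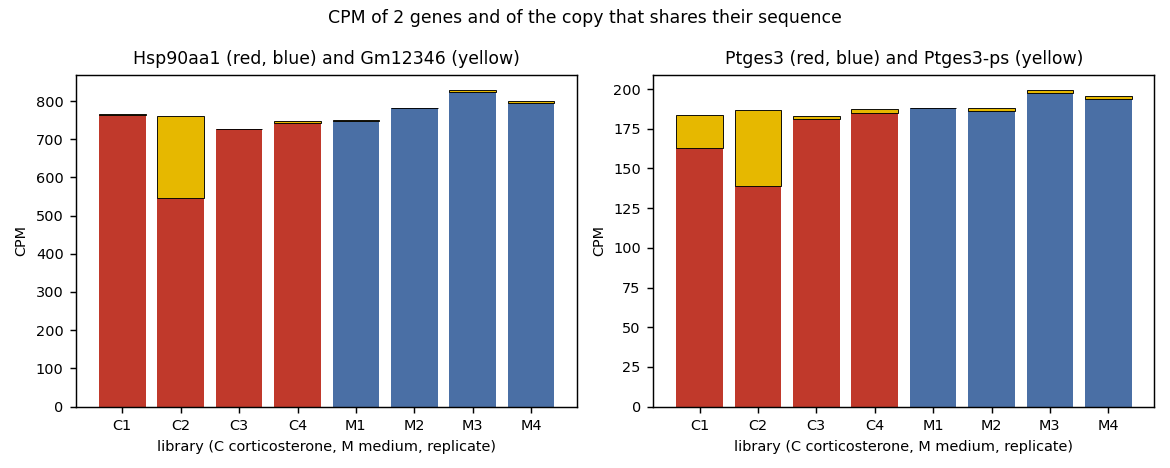
CPM of Hsp90aa1 and Ptges3 (red, corticosterone; blue, medium) with the CPM of a copy that shares their sequence stacked on top (yellow), per library. The yellow part is large in C2 for Hsp90aa1 and in C1 and C2 for Ptges3, and the whole bars of these libraries are as tall as those of C3 and C4.

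The ratio of Hsp90aa1 to Hsp90ab1 CPM, alpha over beta, was 0.216, 0.152, 0.218 and 0.216 in the corticosterone libraries, against 0.219, 0.219, 0.233 and 0.224 in the medium libraries. Apart from corticosterone replicate 2 the libraries differed little. The difference of the log2 ratios was -0.18 (exact permutation p = 0.0286), fell in size to -0.05 without corticosterone replicate 2, to -0.04 in the 6 libraries without corticosterone replicates 1 and 2 and to -0.06 with the copies added, and was 0.04 on TPM.

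Levels of different genes were compared per length, as TPM (abundance per 1e+06 transcripts) recomputed with a single effective length per transcript. In corticosterone replicates 3 and 4, Hsp90ab1 stood highest at 2039 and 2111 TPM, above Hsp90aa1 at 474 and 477 TPM and Stip1 at 210 and 218 TPM. Next came Ptges3 at 145 and 148 TPM, Fkbp5 at 145 and 144 TPM and Fkbp4 at 128 and 152 TPM, whose ranges overlapped, and then Nr3c1 at 30.3 and 29.3 TPM. In medium the order was Hsp90ab1 (2280 ± 55.9 TPM), Hsp90aa1 (509 ± 26.9), Stip1 (249 ± 6.90), Fkbp4 (171 ± 3.39), Ptges3 (157 ± 1.96), Nr3c1 (38.5 ± 1.59) and Fkbp5 (20.8 ± 1.25), with no overlap between neighbours in TPM over the 4 libraries. Fkbp5 thus stood below the receptor gene in medium and at the level of Fkbp4 and Ptges3 with corticosterone. Nr3c2 had 1.32 and 0.885 TPM in corticosterone replicates 3 and 4, against 0.278 to 0.790 TPM in medium, and Hsd11b2 had 0.531 and 0.601 TPM in corticosterone replicates 3 and 4, against 0.0443 to 0.332 TPM in medium. These 2 genes overlapped in medium and not in corticosterone replicates 3 and 4.

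The promoters of the 4 members whose expression changed and for which a RefSeq sequence was at hand are shown to set the induced Fkbp5 and Nr3c2 beside the reduced Fkbp4 and Stip1. Each holds 250 bases before and 50 bases after the RefSeq gene start on GRCm38.p6, written 5′ to 3′ on the gene's strand. The windows are chr17:28486100-28486399 (minus strand) for Fkbp5, chr8:76902080-76902379 (plus strand) for Nr3c2, chr6:128438607-128438906 (minus strand) for Fkbp4 and chr19:7039977-7040276 (minus strand) for Stip1. The RefSeq start of Fkbp5 is the first base of Fkbp5-201, the transcript with most of its counts over all libraries. Those of Nr3c2, Fkbp4 and Stip1 lie 42, 21 and 59 bases from the first base of theirs. The first base of Stip1-201, 7039967, lies outside the window. For Nr3c2 the transcript is Nr3c2-203. Nr3c2-204, which starts outside the window at 76899772, had more counts in corticosterone replicate 2 and medium replicates 1 and 3. Capitals mark matches, on either strand, to the CCAAT box (the letters CCAAT), to the GC box (the letters GGGCGG) and to the pair of heat shock units head to head, GAANNTTC.
Fkbp5: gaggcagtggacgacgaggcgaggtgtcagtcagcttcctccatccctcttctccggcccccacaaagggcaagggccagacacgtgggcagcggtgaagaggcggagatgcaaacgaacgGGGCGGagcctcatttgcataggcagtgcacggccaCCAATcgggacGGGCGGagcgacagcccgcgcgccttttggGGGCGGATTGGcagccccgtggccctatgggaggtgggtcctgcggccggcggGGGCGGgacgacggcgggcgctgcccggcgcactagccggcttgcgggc
Nr3c2: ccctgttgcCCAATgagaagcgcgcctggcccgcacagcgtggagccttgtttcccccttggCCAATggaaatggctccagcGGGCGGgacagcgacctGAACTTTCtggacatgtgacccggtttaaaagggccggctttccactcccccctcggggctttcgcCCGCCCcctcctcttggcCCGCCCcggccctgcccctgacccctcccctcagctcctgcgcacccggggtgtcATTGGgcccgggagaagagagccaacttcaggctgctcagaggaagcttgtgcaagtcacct
Fkbp4: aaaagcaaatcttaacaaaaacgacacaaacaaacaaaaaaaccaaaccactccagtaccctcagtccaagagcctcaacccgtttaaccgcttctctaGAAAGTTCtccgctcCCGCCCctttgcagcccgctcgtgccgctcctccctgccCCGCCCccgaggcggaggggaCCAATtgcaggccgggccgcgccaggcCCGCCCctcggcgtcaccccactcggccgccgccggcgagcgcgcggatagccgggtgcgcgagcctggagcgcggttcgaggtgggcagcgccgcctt
Stip1: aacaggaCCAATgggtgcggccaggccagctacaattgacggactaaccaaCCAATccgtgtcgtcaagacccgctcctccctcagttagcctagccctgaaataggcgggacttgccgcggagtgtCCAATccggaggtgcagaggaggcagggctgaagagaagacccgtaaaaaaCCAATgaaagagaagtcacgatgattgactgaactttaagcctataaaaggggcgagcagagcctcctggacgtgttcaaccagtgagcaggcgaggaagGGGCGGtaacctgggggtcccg

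The table held promoters of 6 of the 10 genes (these 4, Hsd11b1 and Ptges3), and 0 of the 6 held the glucocorticoid response element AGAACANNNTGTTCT, a palindrome that 0.009132% of the 32851 promoters in the table hold. The half-site AGAACA, contained in it, was in 0 of the 6 as well and in 18.97% of all promoters. The pair GAANNTTC, a building block of heat shock elements, was found once in Fkbp4 and once in Nr3c2, in both with its first letter at position -151, and in 7.86% of all promoters. The tail-to-tail pair TTCNNGAA was in 0 of the 6 and in 8.52% of all promoters. The box CCAAT was found 2 times in Fkbp5, 3 in Nr3c2, 1 in Fkbp4 and 4 in Stip1, and in 37.41% of all promoters. The box GGGCGG was found 4 times in Fkbp5, 3 in Nr3c2, 3 in Fkbp4 and 1 in Stip1, and in 35.66% of all promoters. The induced genes and the reduced genes thus shared the same common boxes, and a missing match says only that these letters are not in this window.

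Transcripts were compared in the 6 libraries without corticosterone replicates 1 and 2. Of the 64 annotated transcripts of the 10 genes 28 were tested, and 3 rose and 2 fell, where over all 43417 transcripts tested 5.24% passed, 2.70% higher and 2.54% lower (edgeR, adjusted over all transcripts). With all 8 libraries 3.15% of transcripts passed, among them 2 transcripts of these 10 genes, Fkbp5-201 and Fkbp5-203. The full-length Fkbp5-201 (3543 nt) had 248 and 245 CPM in corticosterone replicates 3 and 4, against 34.7, 37.0, 38.96 and 38.5 CPM in the medium libraries. It rose by 2.73 ± 0.049 on the log2 scale, at an adjusted p of 1.39e-05. The short non-coding Fkbp5-203 (838 nt) had 14.7 and 12.8 CPM in these corticosterone libraries, against 1.52, 1.67, 1.46 and 2.24 CPM in medium, and rose alongside it (log2 fold change 3.00 ± 0.193, adjusted p = 0.000611). Fkbp5-208, another processed transcript, had 37 and 67 rounded counts in corticosterone replicates 3 and 4 and 0 in all 4 medium libraries. This is at least 69.8-fold higher against a floor of 3 counts over the medium group (edgeR adjusted p = 0.0318, and 0.0874 with all 8 libraries). It passed the filter on low counts only through the corticosterone libraries, so its p is no separate support. Floors cover counting error only.

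The 2 transcripts that fell carried nearly all counts of their genes. Fkbp4-201 had 147 and 160 CPM in corticosterone replicates 3 and 4, against 188, 200, 194 and 195 CPM in medium (log2 fold change -0.34 ± 0.045, adjusted p = 0.0095). Stip1-201, the only annotated transcript of Stip1, had 282 and 287 CPM, against 312, 334, 320 and 330 CPM in medium (log2 fold change -0.19 ± 0.035, adjusted p = 0.036). Both of the main Nr3c1 transcripts had values below 0, Nr3c1-203 with a log2 fold change of -0.41 ± 0.10 and Nr3c1-204 with -0.29 ± 0.20, and neither passed (adjusted p = 0.0963 and 0.605).

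The share of a gene's counts in one transcript showed how far corticosterone replicates 1 and 2 differ in transcript assignment. Ptges3-202 took 61.4% and 60.7% of Ptges3 counts in corticosterone replicates 1 and 2 and 2.31% and 0% in replicates 3 and 4, against at most 1.91% in the medium libraries. Hsp90aa1-202 took 1.16%, 13.1%, 36.0% and 36.0% in the corticosterone libraries, against 38.0%, 33.2%, 33.6% and 33.6% in the medium libraries. Nr3c1-204 took 88.1%, 25.2%, 48.3% and 32.2% in the corticosterone libraries, against 41.0%, 36.4%, 36.8% and 41.8% in the medium libraries. In Ptges3 and Hsp90aa1 both corticosterone replicates 1 and 2 stand out, with values that the other libraries do not approach. In Nr3c1 replicate 1 stands out, and the other 3 corticosterone libraries lie outside the medium range as well, on either side of it.

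Of the 9 transcripts compared by share in 6 genes, 0 passed two-sided exact permutation tests adjusted over the 9. This was nearly fixed in advance, because a lone transcript at the smallest possible p of 0.0286 gets an adjusted p of 0.257. It is therefore no evidence that the shares were unchanged. At an unadjusted p under 0.05 there was 1, Fkbp5-201. It took 89.1%, 82.0%, 93.7% and 93.7% of Fkbp5 counts in the corticosterone libraries, against 95.4%, 94.6%, 95.9% and 94.0% in the medium libraries (difference -5.37 percentage points, exact p = 0.0286, the smallest possible, adjusted p = 0.257). In the 6 libraries the difference was -1.31 points (exact p = 0.133, the smallest that 2 against 4 allows, so no transcript could pass there). The rise of Fkbp5 thus lay in the same main transcript that carried it in medium.

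**Figure D4:**
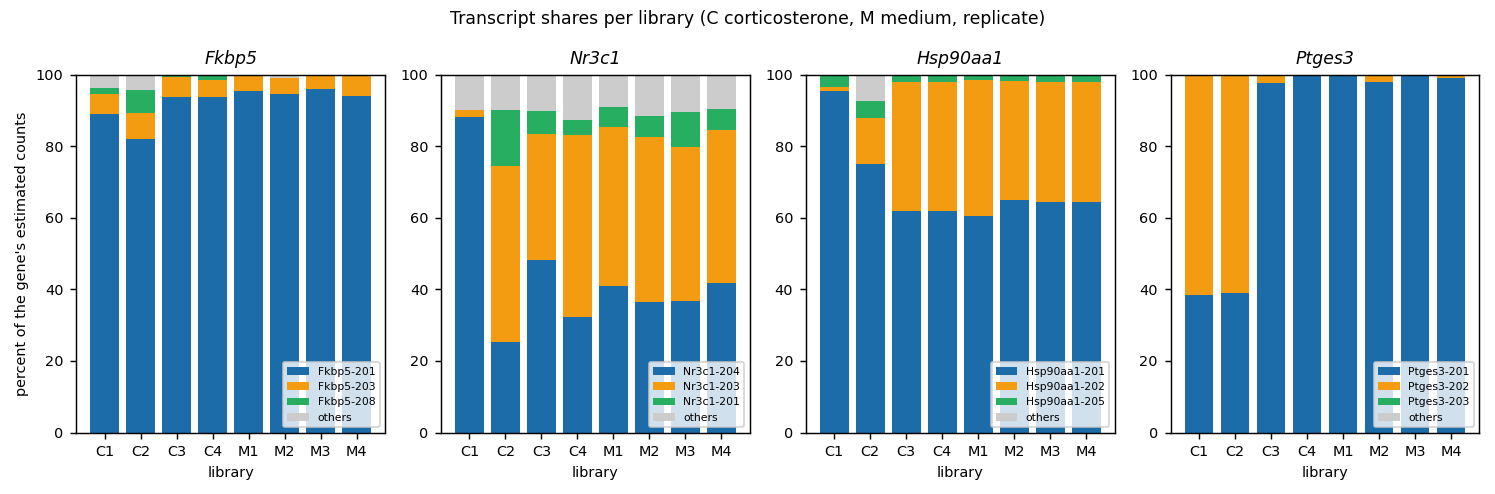
Percent of a gene's estimated counts in its 3 leading transcripts (colours) and in all others (grey) per library, with corticosterone libraries C1 to C4 left of medium libraries M1 to M4. C1 and C2 differ from all other libraries in Hsp90aa1 and Ptges3 (Ptges3-202 at 61.4% and 60.7%), and C3 and C4 look like the medium libraries there.

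The wider machinery was read from 6 lists of pathway genes. Without the 10 genes they named 88 genes, of which 74 were tested, and 19 rose and 13 fell, at a median log2 fold change of 0.02, against -0.00456 over all genes tested. These counts lie near the 19.5% of all genes that rose and the 20.6% that fell, the shares to set beside each list below. A list's name does not give the role of each gene in it, and the text gives no test of a list as a whole. Fkbpl and Fkbp8 stand in both the co-chaperone and the FKBP list and are counted once in the 88.

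Among the 27 co-chaperones of HSP90 and HSP70, all tested, 5 rose and 5 fell. On log2 TPM 0 rose and 0 fell, and with library size alone 5 rose and 8 fell. Fkbpl, an FKBP-like HSP90 partner, rose 1.47-fold to 11.8 ± 0.805 CPM, against 8.02 ± 0.870 CPM in medium (edgeR adjusted p = 0.000201). Dnajb4, a J-domain protein that feeds clients to HSP70, rose 1.23-fold (1.48e-05) and Aarsd1 1.17-fold (0.000115). On log2(TPM + 0.5) these 3 had log2 fold changes of 0.46, 0.11 and 0.05 and did not pass (adjusted p = 0.0783, 0.578 and 0.748). Outside the rule for named genes, and chosen after their values were seen, Bag3 (1.13-fold) and Sugt1 (1.11-fold) rose, and Dnajb6 (0.872 times), Dnajb1 (0.877), Ppp5c (0.905), Dnaja2 (0.924) and Nudc (0.937) fell. Ppp5c encodes a phosphatase that docks on HSP90 at the FKBP site. Cdc37, the kinase adaptor (277 ± 5.37 CPM with corticosterone and 275 ± 5.03 CPM in medium), Ahsa1, the activator of the HSP90 ATPase (138 ± 6.5 CPM with corticosterone and 143 ± 4.70 CPM in medium), and St13, the HSP70-interacting protein (269 ± 8.66 CPM with corticosterone and 271 ± 5.36 CPM in medium), did not pass. Without corticosterone replicates 1 and 2, Nudc no longer passed (adjusted p = 0.0646), Stub1 fell (0.00489) and Unc45a rose (log2 fold change 0.12, adjusted p = 0.0371, against -0.09 with all libraries), and the log2 fold change of Dnajb6 was -0.12 in place of -0.20.

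A list of 18 further heat shock genes held cytosolic HSP70, HSP110 and small heat shock proteins together with Hspd1 and Hspe1 of the mitochondria and Serpinh1 and Hspa13 of the endoplasmic reticulum. Of the 18 genes 16 were tested, and 2 rose and 3 fell (1 and 1 on log2 TPM). Hspb1, which encodes the small heat shock protein HSP25 of mice, rose 6.83-fold to 9.87 ± 0.721 CPM, against 1.42 ± 0.302 CPM in medium (edgeR adjusted p = 6.96e-09). Cryab, another small heat shock gene, rose 1.41-fold (0.0106), a call lost without corticosterone replicates 1 and 2 (0.0519). Hspa8, the constitutive HSP70 of the cytosol, fell to 1632 ± 78.9 CPM, against 1878 ± 45.7 CPM in medium (0.869 times, adjusted p = 0.000345). The call of Hspa8 was lost on log2 TPM (log2 fold change -0.48, adjusted p = 0.0872), where the median of all genes was -0.17 with a pseudocount of 0.5. Hsph1, the gene of HSP110, a nucleotide exchange factor of HSP70, fell to 144 ± 9.35 CPM, against 191 ± 1.48 CPM in medium (0.753 times, 4.85e-06). Hspa14 fell as well (0.918 times). The stress-inducible Hspa1b had 50.8 ± 2.89 CPM with corticosterone and 50.9 ± 2.17 CPM in medium (adjusted p = 0.989), and Hspa1a did not pass (0.495), nor did Hspa4 (0.987).

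Of the 8 genes listed as HSP90, HSP70 and their partners in the endoplasmic reticulum and mitochondria, 7 rose and 0 fell on counts. Over all genes tested 19.5% rose and 20.6% fell. The median log2 fold change of the 8 was 0.15. On log2 TPM 0 passed and 5 of the 8 lay below 0 (median -0.03, with the median of all genes at -0.17 there). The 4 organelle chaperones of the preceding list did not pass on counts, Hspe1 (adjusted p = 0.0548), Hspd1 (0.172), Serpinh1 (0.765) and Hspa13 (0.847). Hspa5, the endoplasmic HSP70 known as BiP, rose 1.22-fold to 1110 ± 39.7 CPM, against 913 ± 27.2 CPM in medium (edgeR adjusted p = 8.98e-06). Hsp90b1, the endoplasmic HSP90 known as GRP94, rose 1.15-fold to 1588 ± 64.0 CPM, against 1378 ± 23.1 CPM in medium (8.9e-05). Hyou1 (1.11-fold) and Dnajb11 (1.12-fold), which work with BiP, rose on counts and had negative values on log2 TPM. Trap1, the mitochondrial HSP90, rose 1.08-fold, a call lost without corticosterone replicates 1 and 2 (log2 fold change 0.06, against 0.11 with all libraries, adjusted p = 0.119).

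Among the 4 heat shock factors 3 were tested, and 0 rose and 2 fell. Hsf4 fell to 4.22 ± 0.537 CPM, against 5.95 ± 0.231 CPM in medium (0.708 times, edgeR adjusted p = 0.00165). Hsf2 fell to 0.909 times its medium level (0.0248), a call lost in 12 of 19 alternatives, among them the 6 libraries without corticosterone replicates 1 and 2 (0.0778). Hsf1, the master regulator of the heat shock response, had 56.1 ± 0.697 CPM with corticosterone and 57.9 ± 0.706 CPM in medium (0.191).

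Fkbp5 and Fkbp4 belong to a family in which, among the other 15 listed members, 14 were tested and 4 rose and 1 fell (1 and 0 on log2 TPM). Fkbp14, a prolyl isomerase of the endoplasmic reticulum that acts on collagen, rose 3.50-fold to 63.8 ± 2.10 CPM, against 18.3 ± 1.63 CPM in medium (edgeR adjusted p = 2.22e-10). Fkbp1a, which encodes FKBP12, the target of tacrolimus and rapamycin, rose 1.21-fold to 811 ± 7.87 CPM, against 670 ± 20.5 CPM in medium (1.86e-06). The others were Fkbpl, given above, Fkbp10 (1.09-fold higher) and Fkbp9 (0.916 times), the last 2 named after their values were seen. The log2 fold change of Fkbp10 was 0.08 without corticosterone replicates 1 and 2, against 0.13 with all libraries. Fkbp8, which like FKBP51 and FKBP52 carries a TPR domain, had 168 ± 8.0 CPM with corticosterone and 165 ± 3.00 CPM in medium (0.550).

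Of 18 further genes listed under corticosteroid enzymes and transport 8 were tested, and 2 rose and 2 fell. On log2 TPM 0 rose and 2 fell, and 0 and 0 there without a filter. Srd5a1, a reductase that clears glucocorticoids, fell to 3.90 ± 0.116 CPM, against 6.18 ± 0.539 CPM in medium (0.632 times, edgeR adjusted p = 7.7e-05), and Srd5a3 fell to 0.850 times its medium level (0.00922). Abcb1b, which encodes a P-glycoprotein, an efflux pump that carries corticosteroids, rose 1.17-fold to 100 ± 2.75 CPM, against 86.1 ± 4.38 CPM in medium (0.000327). Abcb1a, the other listed gene of a P-glycoprotein, was low and did not pass. It had 0.531 ± 0.355 CPM with corticosterone and 0.758 ± 0.117 CPM in medium (log2 fold change -0.50, edgeR adjusted p = 0.390). Hsd17b10 rose 1.19-fold (0.000836). The rises of Abcb1b and Hsd17b10 both turned negative on log2 TPM. Hsd3b1, Cyp11b2 and Serpina6 had 0 counts in all libraries, and Abcg2, an efflux transporter of the blood-brain barrier, did not pass (0.205).

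**Figure D5:**
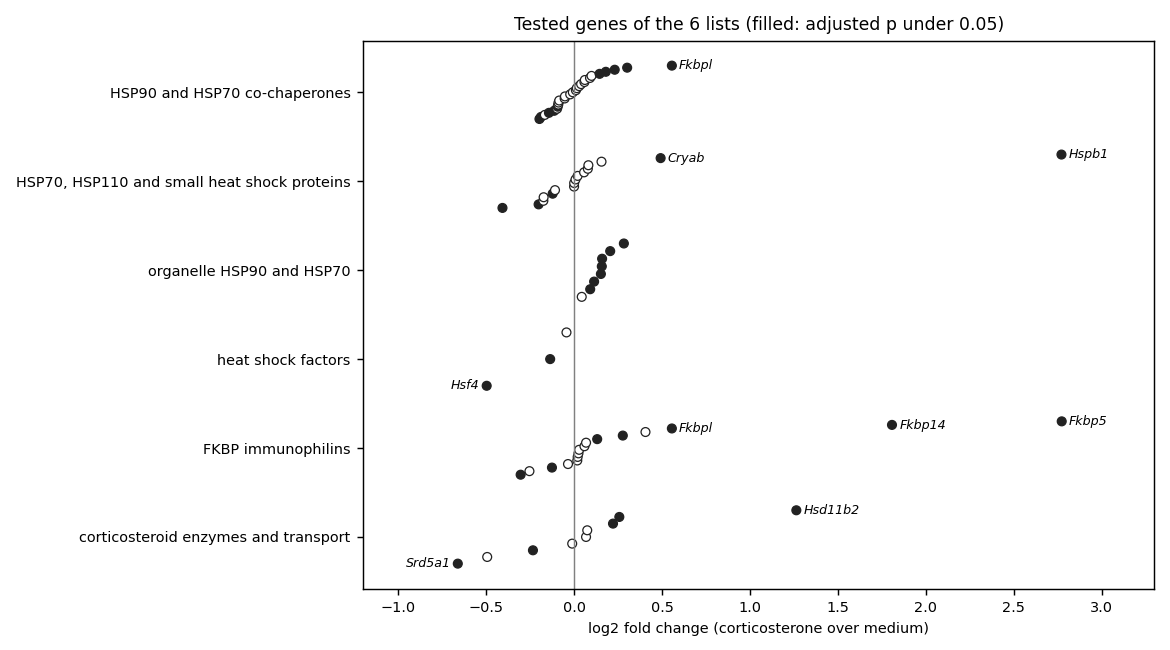
Log2 fold changes (corticosterone over medium, x axis) of the tested genes of the 6 pathway lists, the listed members of the 10 included. Each list has 1 point per gene, so Fkbpl and Fkbp8, in both the co-chaperone and the FKBP list, appear in each. Filled points have an adjusted p under 0.05 and those over 0.45 in size are named. Fkbp5 and Hspb1, both at 2.77, lie farthest to the right, and all 8 genes of the organelle HSP90 and HSP70 list lie right of 0 on counts (3 of 8 on log2 TPM).

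Genes whose pattern was most like that of Fkbp5 were taken by Pearson's r of log2 CPM over the 8 libraries among 8898 genes. The 5 closest were Ramp3, Mgat4a, Aldh1a7, Ace and Pdlim1, with r of 0.9996, 0.9995, 0.9995, 0.9995 and 0.9995. The 8 points fall into the 2 groups, so r reflects the group difference, and 270 genes had r over 0.99. Ace, the angiotensin-converting enzyme of endothelium, had 663 ± 23.5 CPM with corticosterone and 90.6 ± 3.62 CPM in medium (log2 fold change 2.87). Aldh1a7 had 101 ± 5.41 CPM with corticosterone and 8.77 ± 0.662 CPM in medium (log2 fold change 3.53).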

How the data were processed

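RNA-seq of bEnd3 cells (4 corticosterone and 4 medium libraries) was read from files the authors deposited. The gene table holds estimated counts, not normalized. Per the file headers, the authors' kallisto tables give estimated counts, TPM and lengths for 119414 transcripts. Per the submitters' processing notes, kallisto 0.46.1, bcl2fastq and GRCm38 were used, while the sources used here do not give the transcript index, strand setting or gene step. In corticosterone replicates 1 and 2 the effective length was the length plus 1 in 100% of 61001 transcripts of 1000 nt or more (0% elsewhere), so the deposited TPM are not comparable between libraries. TPM were recomputed from the same estimated counts with the median effective length of the other 6 libraries. Corticosterone replicates 1 and 2 still stood apart in these TPM. Hsp90ab1 had 1739 and 2664 TPM there, against 2039 and 2111 TPM in corticosterone replicates 3 and 4. GENCODE M21 matched 97.3% of transcripts, and gene values equalled transcript sums within 0.5 counts in 99.997% of genes. Shared 31-mers were counted over annotated transcripts.

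Counts were rounded and fitted with edgeR 4.0.16 (R 4.3.3), with filterByExpr, TMM and robust quasi-likelihood F tests with group as the single term. SE is the size of the log2 fold change over the square root of F, and CPM are mean ± SD. Alternatives used DESeq2 1.42.0 and limma 3.58.1 (limma-trend on log2 of TPM plus 0.5 or 1). The code was tested on simulated data. The gene test on 8 libraries called 58.2% of 1.3-fold and 76.8% of 2-fold changes. The transcript test on 6 libraries called 2.15% and 27.4%. A gene or transcript that did not pass may therefore still have changed. Motifs were searched in RefSeq promoters of GRCm38.p6. The 10 genes and the lists were chosen with earlier results of these data known. Named pathway genes were, per list, the 3 called genes of smallest p and up to 3 called genes of largest change with at least 1 CPM, 19 in all. Another list is not reported here. Named transcripts have a mean share of at least 10% in a group. Other transcripts and listed genes were named after their values were seen.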

Additional observations from a re-analysis of the deposited data

Results flagged for a closer look

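Of 44 groups of 4 values, 6 held a library far from the other 3 by Dixon's criterion, which chance meets in about 1 group in 20. Corticosterone replicate 2 gave 4 of them: Hsp90aa1 at 547 CPM (lowest of its group), the log2 ratio of Hsp90aa1 to Hsp90ab1 at -2.72 (lowest), the share of Fkbp4-201 at 77.6% (lowest) and the share of Hsp90ab1-201 at 85.0% (lowest). The same library had 5823 estimated counts of Gm12346, the copy of Hsp90aa1, and effective lengths not shortened by a fragment length. Their part in the other 2 values was not tested. Medium replicate 1, the deepest library, gave the other 2: the share of Hsp90aa1-201 at 60.5% (lowest) and of Hsp90aa1-202 at 38.0% (highest), which add up to nearly all counts of the gene and so mirror each other.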

How the results depend on the processing

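Among 19 alternatives Fkbp5 kept its call in all, Nr3c1 and Fkbp4 in 18 (adjusted p = 0.0642 and 0.0836 on log2 TPM without a filter), Nr3c2 and Stip1 in 16, all but the 3 on log2 TPM, and Hsd11b2 in 7. With limma-trend on log2(TPM + 0.5), log2(TPM + 1) and log2(TPM + 0.5) without a filter, 1193, 1195 and 673 genes passed, with 3, 3 and 1 of the 10 genes and 6, 6 and 3 listed genes, against 5327, 6 and 32 on counts. The median of all genes was -0.17, -0.15 and -0.05 there, and of the calls 31.9%, 31.5% and 39.5% were higher, against 48.6% on counts and 39.4% with library size alone. Reversed on these 3 were Abcb1b (-0.21), Hyou1 (-0.079, -0.078, -0.079), Dnajb11 (-0.000135, -5.65e-05, -0.000135) and Hsd17b10 (-0.00178, -0.00175, -0.00178). The Hsp90aa1 to Hsp90ab1 ratio reversed on TPM (0.0387, exact adjusted p = 0.771). The TPM used here are the recomputed ones of all 8 libraries, with corticosterone replicates 1 and 2 included. The cause was not tested. Leaving out 1 library gave 4753 to 5089 genes, 5 to 7 of the 10 and 31 to 33 listed genes. Transcript calls numbered 1260 with all 8 libraries (2 from the 10 genes) and 4631 with DESeq2, against 2276 (5), and 1015 to 1736 (3 to 5) without 1 library. The log2 ratios were 3.07, -0.0446 and -1.18 in 6 libraries (exact p = 0.133, the smallest possible), and 3.05 to 3.11, -0.222 to -0.0463 and -1.25 to -0.95 without 1 library (exact p = 0.0571, the smallest possible), for Fkbp5 to Fkbp4, Hsp90aa1 to Hsp90ab1 and Nr3c1 to Nr3c2. Deposited TPM raised corticosterone means to 31.7 (Nr3c1), 148 (Fkbp4), 167 (Fkbp5), 502 (Hsp90aa1), 231 (Stip1), 152 (Ptges3) and 2522 (Hsp90ab1), the last above its deposited medium mean of 2274, against 2138 and 2280 as recomputed. Libraries with the same replicate number did not deviate from their group means together (correlations of -0.0532 to 0.0304). This does not tell whether they were handled together. With the replicate block 4913 genes passed, 6 of the 10, with Ptges3 gained (adjusted p = 0.0494) and Hsd11b2 lost (0.0519), and 33 listed genes. The block left 0 transcripts, 0 from the 10 genes, with 1 residual degree of freedom. Depth limits Hsd11b1, Hsd11b2 and Nr3c2.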
